A study of Saccharomyces cerevisiae with 18 samples.

Results

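The iron uptake regulon of Saccharomyces cerevisiae was followed through 10 genes, FIT1, FIT2, FIT3, FET3, ARN1, ARN2, FRE2, FRE3, HMX1 and TIS11, out of 6600 genes with a value in every library. The genes were taken by name from a list of known iron regulon members, and no measured value entered the rule. The members were, however, chosen with earlier results of these data known, so the choice was not blind to them. All 10 passed the filter on low counts. The libraries came from 3 strains named LP085-Vc, LP104-17 and LP118, labelled as makers of diosgenin, a steroid aglycone of plants. All 3 strains share the background BY4742, a haploid laboratory strain of mating type alpha, and the labels give neither a genotype nor a list of introduced genes, so no allele can be tied to a difference between strains. Overnight cultures were diluted to an OD600 of 0.1 in 15 mL of synthetic dextrose medium with 2% glucose, shaken in flasks at 30 °C and 250 rpm, and harvested at 6 h or 24 h. Each of the 6 combinations of strain and time had 3 libraries, 18 in all. Whether the 3 come from 3 cultures is not labelled, so the p-values here reflect spread among libraries that may be technical in origin.

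Budding yeast takes up iron through several parallel routes, and the transcription factors Aft1 and Aft2 switch on their genes when iron-sulfur cluster synthesis signals that iron is short. Cell wall mannoproteins of the FIT family retain siderophores, which are iron chelators released by other microbes, metalloreductases of the FRE family free and reduce the iron, and the ferroxidase Fet3 with the permease Ftr1 carries it into the cell. Siderophore transporters of the ARN family take in the whole complex, the heme oxygenase Hmx1 recovers iron from heme, and Tis11, also named Cth2, binds and destabilizes messenger RNAs of iron-using proteins.

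Total counts ran from 5117869 to 7548113 per library. Levels are given as CPM, the count of a gene per 1e6 counts of its library after TMM scaling, and every fold change is a log2 difference ± SE from 1 edgeR quasi-likelihood fit to all 18 libraries, with 3 libraries per group. A gene is called where its Benjamini-Hochberg adjusted p over the 6131 genes tested is below 0.05. CPM is a share of the library, so a change in RNA per cell and a change in the number of cells that make the RNA cannot be told apart in these bulk cultures. As a check of the mating type, the 4 alpha-specific genes summed to between 467 and 1932 CPM over the libraries and the 6 a-specific genes to between 45.2 and 105 CPM, with none at 0 in all libraries. MF(ALPHA)1 alone read 259 to 1524 CPM. Single genes of the 2 sets overlapped, with the alpha-specific MF(ALPHA)2 at 13.1 to 98.5 CPM and the a-specific STE6 at 23.6 to 71.1 CPM. In LP118, genes of chromosome V had a median log2 difference from LP085-Vc of -0.99 at 6 h and -1.08 at 24 h, and genes of chromosome IX of 0.88 and 0.95. No member lies on either chromosome.

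The upstream sequences of the members share a short word, which is shown first because it is what the 10 genes have in common in the genome. Aft1 is known to bind a core of GCACCC, with TGCACCC as the fuller form, and both were searched on both strands in the 500 bases before each start codon of the RefSeq annotation, build R64. Each TGCACCC match holds a GCACCC match within it. The longer word was present before 10 of 10 members and before 140 of 6000 genes searched (2.33%), and the core before 10 of 10 members and 457 genes (7.62%). At least 2 matches to GCACCC stood before 5 members, FIT1, FIT2, FIT3, FET3 and TIS11, against 41 of 6000 genes (0.683%). Stretches from those 5 genes follow, 5′ to 3′ on the strand of the gene, with capitals marking GCACCC or its reverse complement GGGTGC.
FIT1, chrIV:1505052-1505208, strand -: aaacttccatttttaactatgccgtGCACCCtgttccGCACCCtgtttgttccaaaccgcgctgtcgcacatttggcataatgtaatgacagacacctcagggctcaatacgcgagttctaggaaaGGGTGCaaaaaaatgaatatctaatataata
FIT2, chrXV:1059131-1059430, strand +: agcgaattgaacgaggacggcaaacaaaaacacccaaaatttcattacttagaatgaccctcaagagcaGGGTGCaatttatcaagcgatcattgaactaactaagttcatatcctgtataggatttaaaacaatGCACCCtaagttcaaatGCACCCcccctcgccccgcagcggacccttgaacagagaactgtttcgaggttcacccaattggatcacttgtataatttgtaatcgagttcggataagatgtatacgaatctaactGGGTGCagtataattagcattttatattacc
FIT3, chrXV:1061209-1061364, strand -: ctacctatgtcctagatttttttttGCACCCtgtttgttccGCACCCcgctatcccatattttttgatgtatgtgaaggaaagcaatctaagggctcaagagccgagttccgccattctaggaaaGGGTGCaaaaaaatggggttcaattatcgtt
FET3, chrXIII:388417-388602, strand +: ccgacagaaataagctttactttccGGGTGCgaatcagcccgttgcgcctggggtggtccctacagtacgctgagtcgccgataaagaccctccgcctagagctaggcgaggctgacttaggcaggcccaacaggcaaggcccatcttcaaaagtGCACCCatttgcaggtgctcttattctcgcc
TIS11, chrXII:416801-416931, strand -: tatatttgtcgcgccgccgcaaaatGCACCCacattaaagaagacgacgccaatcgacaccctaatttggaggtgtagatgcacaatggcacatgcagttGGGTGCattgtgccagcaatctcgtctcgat
FIT1 and FIT3 carry 2 forward matches close together and 1 reverse match nearer the gene, at almost the same distances from the start codon. The stretch shown for FIT2 holds 4 of its 5 matches. Each of ARN1, ARN2, FRE2, FRE3 and HMX1 had 1 match, and TGCACCC begins 430 bases before the start codon in FRE2 and 427 bases before it in FRE3. The members were listed as known genes of the regulon that Aft1 and Aft2 switch on, and the word is the known site of Aft1. The list and the word are therefore not independent, and matches before all 10 members are a description, not a test. The 6000 genes searched include the members. A match is a run of letters, and binding was not measured.

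**Figure D1:**
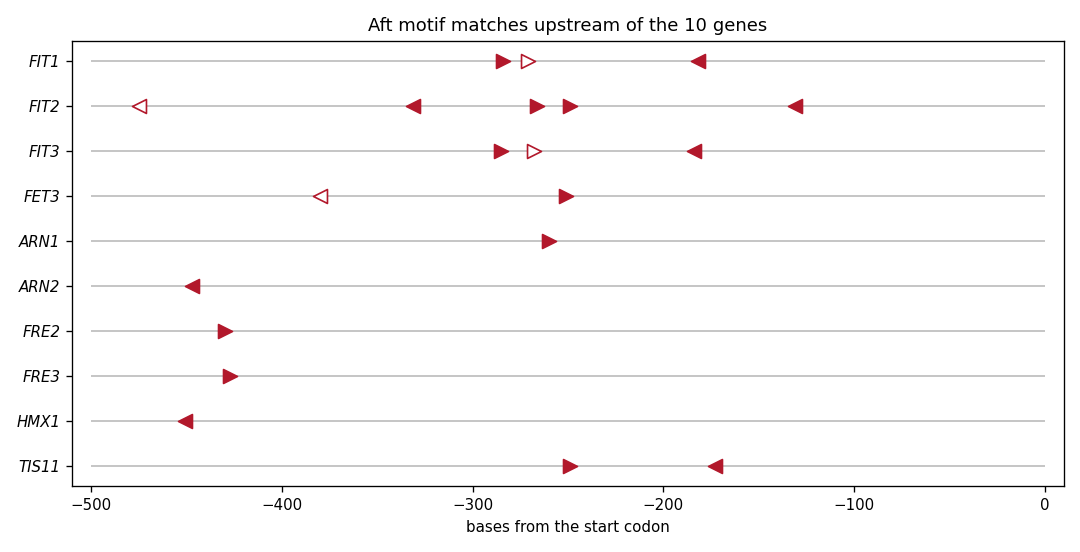
Positions of GCACCC and TGCACCC matches in the 500 bases upstream of the start codon of each of the 10 members, with distance from the start codon in bases on the x axis and 1 line per gene. All 10 genes have at least 1 TGCACCC match, and FIT2 has the largest number of GCACCC matches among the members, 5.

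FRE3 (YOR381W, XV, 1055545 to 1057680), FIT2 (YOR382W, XV, 1059531 to 1059992) and FIT3 (YOR383C, XV, 1060441 to 1061055) are neighbours, and ARN1 (YHL040C, VIII, 19088 to 20971) and ARN2 (YHL047C, VIII, 8351 to 10213) lie near one end of chromosome VIII. FIT1 (YDR534C) lies at IV, 1503314 to 1504900, and FRE2 (YKL220C) at XI, 9091 to 11226. These 7 genes sit 8.4 to 33.6 kb from a chromosome end, whereas FET3 (YMR058W, XIII, 388822 to 390732), HMX1 (YLR205C, XII, 552724 to 553677) and TIS11 (YLR136C, XII, 415801 to 416658) sit 388.8 kb or more from one. Coordinates are those of coding sequences in build R64, and no member overlaps another annotated gene. FRE2 and FRE3 share 76.8% of aligned coding bases, with a longest shared run of 34 bases, and ARN1 and ARN2 share 59.8%. In FIT1, 11.9% of 50-base windows occur more than once in the genome, so its counts are uncertain in that part, and the other members had no repeated window.

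Most members rose between 6 h and 24 h in every strain. In LP085-Vc 9 of the 10 members rose and none fell, where 37.9% of all genes tested were called higher, 38.3% lower and 76.2% in either direction. In LP104-17 9 rose and none fell (35.2% of all genes higher, 35.7% lower, 70.9% either). In LP118 8 rose and none fell (26.6% of all genes higher, 30.5% lower, 57.1% either). The library ranges of the 2 times did not overlap for 10 members in LP085-Vc (77.8% of all genes), 9 in LP104-17 (71.4%) and 8 in LP118 (63.6%). The median log2 change of the members was 2.35 in LP085-Vc, 3.66 in LP104-17 and 2.23 in LP118, beside medians of all genes of 0.00, 0.00 and -0.05. Together the 10 genes took 0.0463% to 0.174% of all counts in the 6 h libraries and 0.836% to 1.16% in the 24 h libraries. FIT3 alone went from between 0.00278% and 0.00731% to between 0.426% and 0.528%.

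**Figure D2:**
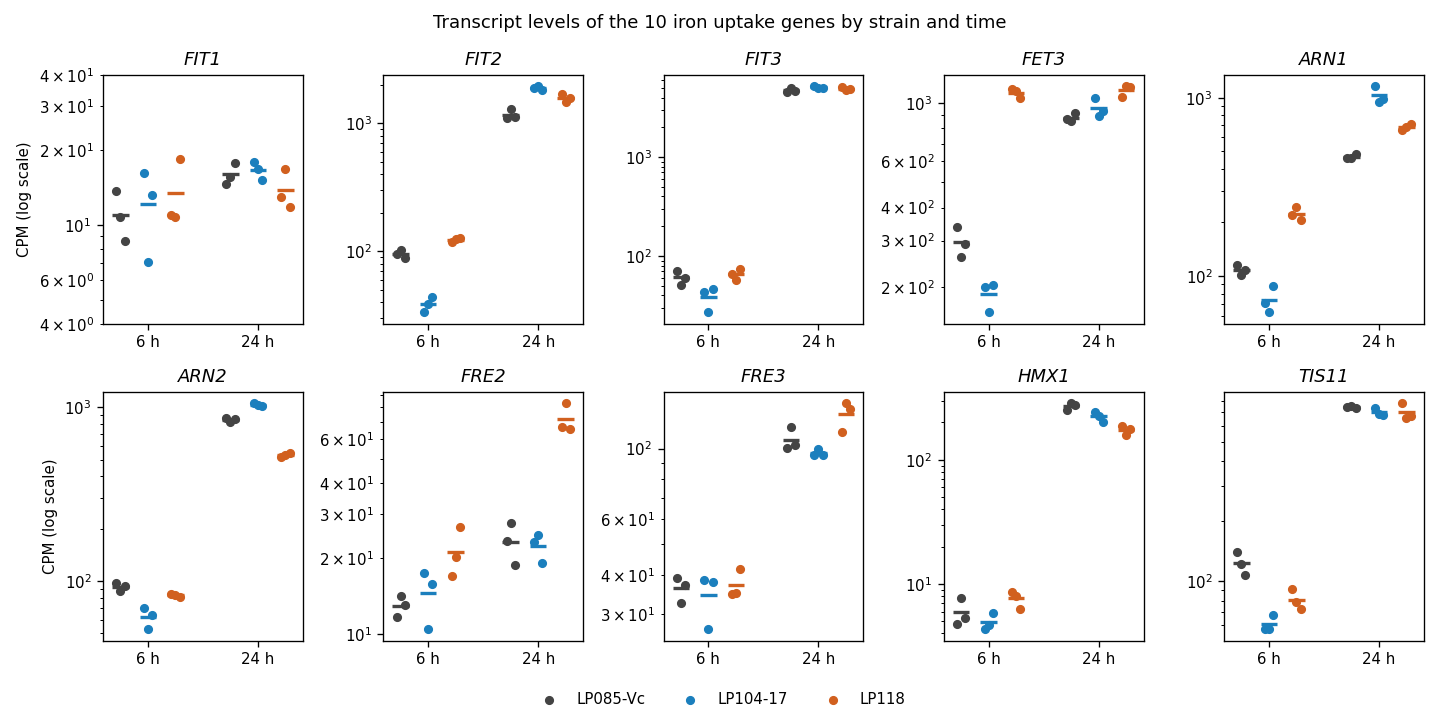
CPM of each of the 10 members in all 18 libraries on a log axis, with 1 panel per gene, points for libraries grouped by strain and time, and bars for group means. The 24 h points lie above the 6 h points of the same strain for FIT2, FIT3, ARN1, ARN2, FRE2, FRE3, HMX1 and TIS11, while FIT1 in LP104-17 and LP118 and FET3 in LP118 overlap between the times.

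Among the cell wall mannoproteins, FIT3 had the widest range of any member. In LP085-Vc FIT3 read 51.5, 59.5 and 71.0 CPM at 6 h and 4579, 4704 and 5021 CPM at 24 h. In LP104-17 FIT3 read 26.9, 43.5 and 46.2 CPM at 6 h and 4953, 4989 and 5216 CPM at 24 h. In LP118 FIT3 read 57.0, 65.3 and 74.6 CPM at 6 h and 4724, 4893 and 5067 CPM at 24 h. The 9 libraries at 24 h were all far above the 9 at 6 h, and at 24 h the strains overlapped. FIT3 rose 78.6-fold in LP085-Vc (log2 6.30 ± 0.17, adjusted p = 8.82e-17), 130.0-fold in LP104-17 (log2 7.03 ± 0.18, adjusted p = 4.63e-17) and 74.6-fold in LP118 (log2 6.22 ± 0.17, adjusted p = 6.37e-16). By size of rise it was number 1 of 6131 genes in LP118, 9 in LP104-17 and 21 in LP085-Vc. Per coding length, FIT3 reached 6904 to 8535 of the authors' length-scaled units (FPKM) at 24 h, which placed it between rank 3 and rank 15 of 6600 genes, against ranks of 1466 to 3359 at 6 h.

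FIT2 followed FIT3 on a smaller scale, and here the strains stood apart at both times. In LP085-Vc FIT2 read 89.1, 95.3 and 103 CPM at 6 h and 1095, 1113 and 1295 CPM at 24 h. In LP104-17 FIT2 read 33.4, 38.7 and 43.9 CPM at 6 h and 1819, 1883 and 1953 CPM at 24 h. In LP118 FIT2 read 119, 126 and 127 CPM at 6 h and 1468, 1588 and 1689.5 CPM at 24 h. LP104-17 was the lowest strain at 6 h and the highest at 24 h, with no overlap between neighbouring groups. The time change was 3.61 ± 0.11 in LP085-Vc, 5.60 ± 0.12 in LP104-17 and 3.68 ± 0.11 in LP118 on the log2 scale, and the change of LP104-17 exceeded that of LP085-Vc by 1.99 ± 0.14 (interaction, adjusted p = 4.10e-09). By FPKM, FIT2 ranked 24 to 59 at 24 h and 666 to 2284 at 6 h.

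FIT1, the longest of the 3 mannoprotein genes, stayed low throughout. Its counts were 52 to 96 per library at 6 h and 75 to 121 at 24 h, or 7.10 to 18.4 CPM and 11.8 to 17.9 CPM. The lowest of the 6 group means was 10.96 CPM (LP085-Vc, 6 h) and the highest 16.6 CPM (LP104-17, 24 h), and each group overlapped with the next in that order. None of its 9 strain and time differences was called. Its log2 time change was 0.54 ± 0.26 in LP085-Vc (adjusted p = 0.0674), 0.47 ± 0.26 in LP104-17 (adjusted p = 0.117) and 0.05 ± 0.27 in LP118 (adjusted p = 0.89). Without replicate 1 of LP085-Vc at 6 h the change in that strain became 0.72 (adjusted p = 0.0315), and without replicate 1 of LP104-17 at 6 h the change there became 0.71 (adjusted p = 0.0329). A fit of only the 2 LP085-Vc groups also called it (0.54, adjusted p = 0.0323). With TGCACCC on both strands and 3 GCACCC matches, FIT1 had the lowest rank of the FIT genes by FPKM, between 5397 and 5943 of 6600.

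**Figure D3:**
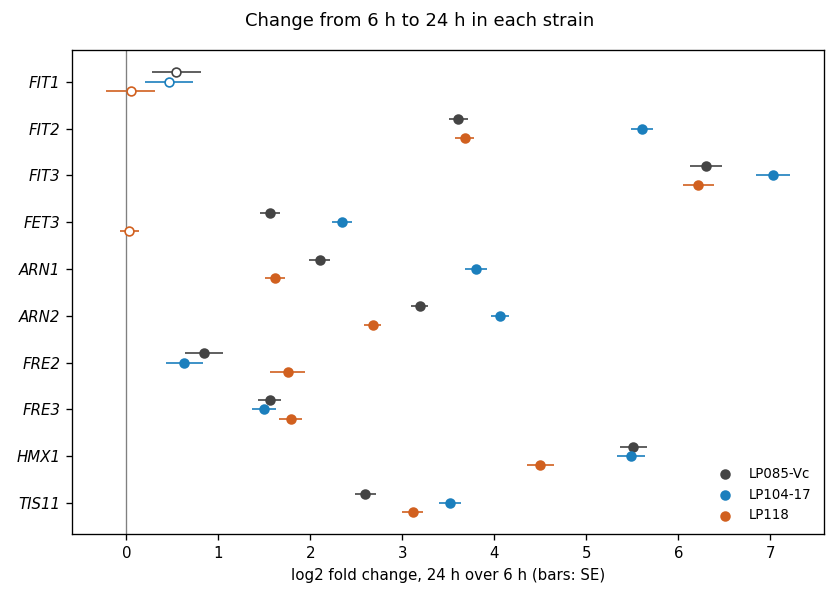
Fitted log2 change from 6 h to 24 h of each member in the 3 strains, with SE bars and open points where the adjusted p was not below 0.05. FIT3 lies furthest to the right in each strain, at 6.30, 7.03 and 6.22, FIT1 lies between 0.05 and 0.54, and FET3 lies at 0.03 in LP118 and at 1.56 and 2.34 in the other strains.

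FET3, which encodes the multicopper ferroxidase, had the largest interaction in size among the members, between LP118 and LP104-17 (-2.31 ± 0.15). In LP085-Vc FET3 read 259.6, 291 and 338 CPM at 6 h and 850.4, 868 and 910.1 CPM at 24 h. In LP104-17 FET3 read 160.2, 200.1 and 203 CPM at 6 h and 887, 929 and 1039 CPM at 24 h. In LP118 FET3 read 1039, 1106 and 1129 CPM at 6 h and 1052, 1142 and 1155 CPM at 24 h. The 2 times overlapped in LP118. Its 6 h libraries lay above every 24 h library of LP085-Vc, and its lowest 6 h value of 1039.5 CPM lay just above the highest 24 h value of LP104-17, 1038.9 CPM. Its 6 h level exceeded LP085-Vc 3.68-fold (log2 1.88 ± 0.11, adjusted p = 7.16e-12) and LP104-17 5.81-fold (log2 2.54 ± 0.11, adjusted p = 2.92e-13). The change over time was 1.56 ± 0.11 in LP085-Vc, 2.34 ± 0.11 in LP104-17 and 0.03 ± 0.10 in LP118 (adjusted p = 0.801). The time change in LP118 was below that of LP085-Vc by 1.53 ± 0.15 (interaction -1.53 ± 0.15, adjusted p = 3.49e-08). At 24 h LP118 remained above LP085-Vc by 0.35 ± 0.10 (adjusted p = 0.00445). Against LP104-17 at 24 h the value was 0.23 ± 0.10 (adjusted p = 0.053), and 9 of the alternatives brought it under the threshold, among them DESeq2 (adjusted p = 0.0296).

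FTR1, the permease that Fet3 needs, was not called between LP118 and LP085-Vc at 6 h. FTR1 read 475, 501 and 583 CPM in LP085-Vc and 510.0, 547 and 591 CPM in LP118 at 6 h, ranges that overlapped (log2 0.08 ± 0.08, adjusted p = 0.401). In LP104-17 it read 363, 369.6 and 370.4 CPM, lower than LP085-Vc by 0.50 on the log2 scale (-0.50 ± 0.08, adjusted p = 3.35e-04). The ratio of FET3 to FTR1 by FPKM was 0.362 ± 0.0124 (SD, n = 3) in LP085-Vc, 0.325 ± 0.0432 in LP104-17 and 1.27 ± 0.120 in LP118 at 6 h. At 24 h the ratio was 0.867 ± 0.0282, 0.899 ± 0.0453 and 0.965 ± 0.0865 in the same order. FTR1 lies on chromosome V, whose median in LP118 against LP085-Vc was -0.99 at 6 h, and the part of that shift in the ratio was not tested. FTR1 rose over time by 0.31 ± 0.08 in LP085-Vc, 0.87 ± 0.08 in LP104-17 and 0.43 ± 0.08 in LP118.

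The siderophore transporters ARN1, which takes up ferrichromes, and ARN2, which takes up triacetylfusarinine, rose in all strains but ranked the strains differently at 24 h. ARN1 in LP085-Vc read 101, 109 and 116 CPM at 6 h and 459, 459 and 481 CPM at 24 h. ARN1 in LP104-17 read 62.7, 70.9 and 88.1 CPM at 6 h and 946, 982 and 1162 CPM at 24 h. ARN1 in LP118 read 207, 221 and 244 CPM at 6 h and 659, 684 and 716 CPM at 24 h. The order of its levels was LP104-17, LP085-Vc, LP118 at 6 h and LP085-Vc, LP118, LP104-17 at 24 h, with no overlap between neighbours. LP104-17 rose by 3.80 ± 0.12 against 2.10 ± 0.11 in LP085-Vc, a difference of 1.70 ± 0.16 (adjusted p = 9.13e-08), and against 1.62 ± 0.11 in LP118, a difference of -2.19 ± 0.16 for LP118 (adjusted p = 9.18e-10). At 24 h LP104-17 held 2.21 times the ARN1 level of LP085-Vc (log2 1.14 ± 0.11, adjusted p = 3.63e-08).

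ARN2 in LP085-Vc read 87.3, 93.5 and 98.0 CPM at 6 h and 824, 853 and 866 CPM at 24 h. ARN2 in LP104-17 read 52.8, 63.7 and 69.8 CPM at 6 h and 1014, 1023 and 1059 CPM at 24 h. ARN2 in LP118 read 81.3, 83.5 and 84.2 CPM at 6 h and 517, 532 and 548 CPM at 24 h. At 24 h LP118 was the lowest strain for ARN2, below LP085-Vc (log2 -0.67 ± 0.08, adjusted p = 5.31e-07) and below LP104-17 (-0.96 ± 0.08), whereas for ARN1 it lay between them. The 2 genes differed in opposite directions in LP118 against LP085-Vc at 24 h, with ARN1 higher by 0.56 ± 0.11 (adjusted p = 1.01e-04). The time change of ARN2 was 3.19 ± 0.09, 4.06 ± 0.10 and 2.68 ± 0.09 in LP085-Vc, LP104-17 and LP118.

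Both ferric reductase genes were low at 6 h. FRE2 and FRE3 encode reductases that act on siderophore-bound iron. FRE2 read 11.7, 13.1 and 14.1 CPM in LP085-Vc, 10.4, 15.9 and 17.5 CPM in LP104-17 and 17.0, 20.3 and 26.6 CPM in LP118 at 6 h. At 24 h FRE2 read 18.8, 23.5 and 27.7 CPM in LP085-Vc, 19.1, 23.3 and 24.8 CPM in LP104-17 and 65.6, 67.0 and 83.4 CPM in LP118. The 3 LP118 libraries at 24 h stood above all 15 others, and the other neighbouring groups overlapped. LP118 exceeded LP085-Vc at 24 h 3.09-fold (log2 1.62 ± 0.19, adjusted p = 1.52e-07) and LP104-17 by 1.68 ± 0.19 (adjusted p = 1.52e-07). FRE2 rose over time by 0.85 ± 0.20 in LP085-Vc, 0.63 ± 0.20 in LP104-17 and 1.76 ± 0.19 in LP118, and the rise in LP118 exceeded that in LP085-Vc by 0.91 ± 0.28 (adjusted p = 0.00888). Without replicate 2 of LP104-17 at 6 h its change there was 0.44 (adjusted p = 0.0594).

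FRE3 moved more evenly than FRE2. It read 26.9 to 41.7 CPM over the 9 libraries at 6 h and 95.5 to 139 CPM at 24 h, and the times did not overlap. FRE3 rose by 1.56 ± 0.12, 1.50 ± 0.13 and 1.79 ± 0.13 in LP085-Vc, LP104-17 and LP118. At 24 h LP118 was above LP104-17 by 0.40 ± 0.12 (adjusted p = 0.00462). Its value against LP085-Vc was 0.27 ± 0.12 (adjusted p = 0.0413), and that call was lost without replicate 1 or 3 of LP085-Vc at 24 h or replicate 2 or 3 of LP118 at 24 h, where the adjusted p was 0.0849, 0.0725, 0.0551 and 0.107.

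HMX1, the heme oxygenase gene, was low at 6 h, with 24 to 51 counts per library. HMX1 read 4.77, 5.32 and 7.68 CPM in LP085-Vc, 4.33, 4.69 and 5.85 CPM in LP104-17 and 6.32, 8.09 and 8.58 CPM in LP118 at 6 h. At 24 h HMX1 read 250.4, 276 and 287 CPM in LP085-Vc, 203, 226 and 244 CPM in LP104-17 and 158, 177 and 186 CPM in LP118. The strains ranked in the order LP118, LP104-17, LP085-Vc at 24 h without overlap. HMX1 rose 45.8-fold in LP085-Vc (log2 5.51 ± 0.15), 45.3-fold in LP104-17 (log2 5.49 ± 0.15) and 22.7-fold in LP118 (log2 4.50 ± 0.15). The rise in LP118 differed from that in LP085-Vc by -1.01 ± 0.22 (adjusted p = 7.25e-04). At 24 h LP118 was below LP085-Vc by 0.64 (-0.64 ± 0.11, adjusted p = 2.02e-05), and its value against LP104-17 was -0.37 ± 0.11 (adjusted p = 0.00517), a call lost in the fits of log2(FPKM + 1) (adjusted p = 0.0660) and log2(FPKM + 0.1) (adjusted p = 0.0961). LP104-17 differed from LP085-Vc by -0.27 ± 0.11 (adjusted p = 0.0375), a call lost without replicate 2 or 3 of LP085-Vc or replicate 2 or 3 of LP104-17 at 24 h (adjusted p 0.142, 0.102, 0.0746 and 0.170).

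TIS11 differed between the strains at 6 h and overlapped at 24 h. TIS11 in LP085-Vc read 107, 121 and 140.2 CPM at 6 h and 735, 745 and 750.0 CPM at 24 h. TIS11 in LP104-17 read 57.5, 57.7 and 68.0 CPM at 6 h and 679, 685 and 737 CPM at 24 h. TIS11 in LP118 read 72.7, 78.8 and 91.2 CPM at 6 h and 653, 668 and 781 CPM at 24 h. At 6 h the 3 strains did not overlap, with LP085-Vc highest, and at 24 h they did. At 6 h LP104-17 was below LP085-Vc (-1.01 ± 0.11, adjusted p = 3.50e-06), as was LP118 (-0.60 ± 0.11, adjusted p = 9.60e-05). The log2 rise over time was 2.60 ± 0.11, 3.52 ± 0.12 and 3.11 ± 0.12 in LP085-Vc, LP104-17 and LP118. None of the 3 strain differences in TIS11 at 24 h was called, with adjusted p from 0.46 to 0.999, and the same held for FIT3, with adjusted p from 0.636 to 0.806.

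At 6 h most members were lower in LP104-17 than in the other strains. In LP104-17 against LP085-Vc at 6 h, 6 of 10 members were lower and none higher (5.76% of all genes tested were called lower, 5.79% higher and 11.5% in either direction), with a median of -0.57 beside 0.00 over all genes. The 6 were FIT2 (-1.30 ± 0.10), TIS11 (-1.01 ± 0.11), FET3 (-0.66 ± 0.11), FIT3 (-0.65 ± 0.15), ARN2 (-0.58 ± 0.09) and ARN1 (-0.56 ± 0.11). When only these 2 groups were fitted, FIT3 (adjusted p = 0.141) and ARN1 (adjusted p = 0.0529) were no longer called. The comparison of LP118 with LP085-Vc at 6 h had 4 members higher and 1 lower, TIS11, where 32.2% of all genes were higher, 33.8% lower and 66.0% called in either direction. With the coding length trend removed, and in both fits of the authors' FPKM values, as log2(FPKM + 1) and as log2(FPKM + 0.1), 2 were lower, ARN2 being the other. The 4 were FET3, ARN1 (1.04 ± 0.11), FRE2 (0.71 ± 0.21) and FIT2 (0.37 ± 0.10), and the call of FRE2 was lost without replicate 3 of LP118 at 6 h (0.52, adjusted p = 0.0516). HMX1, not called in that comparison, was called without replicate 2 of LP085-Vc at 6 h (0.62, adjusted p = 0.0129). In LP118 against LP104-17 at 6 h, 8 members were higher and none lower (28.7% of all genes were called higher, 29.8% lower and 58.5% in either direction), with a median of 0.59. Besides FET3 the larger values were FIT2 (1.67 ± 0.10) and ARN1 (1.60 ± 0.11). HMX1 among the 8 (0.62 ± 0.20) was not called without replicate 1 of LP118 at 6 h (adjusted p = 0.0637), and FRE2 (0.56 ± 0.21) was not called without replicate 2 of LP104-17 (0.39, adjusted p = 0.120) or replicate 3 of LP118 (0.36, adjusted p = 0.181). Library ranges did not overlap for 6 members in LP104-17 against LP085-Vc (24.0% of all genes), 6 in LP118 against LP085-Vc (70.1%) and 7 in LP118 against LP104-17 (63.0%). These 3 comparisons share libraries and are not independent of each other.

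**Figure D4:**
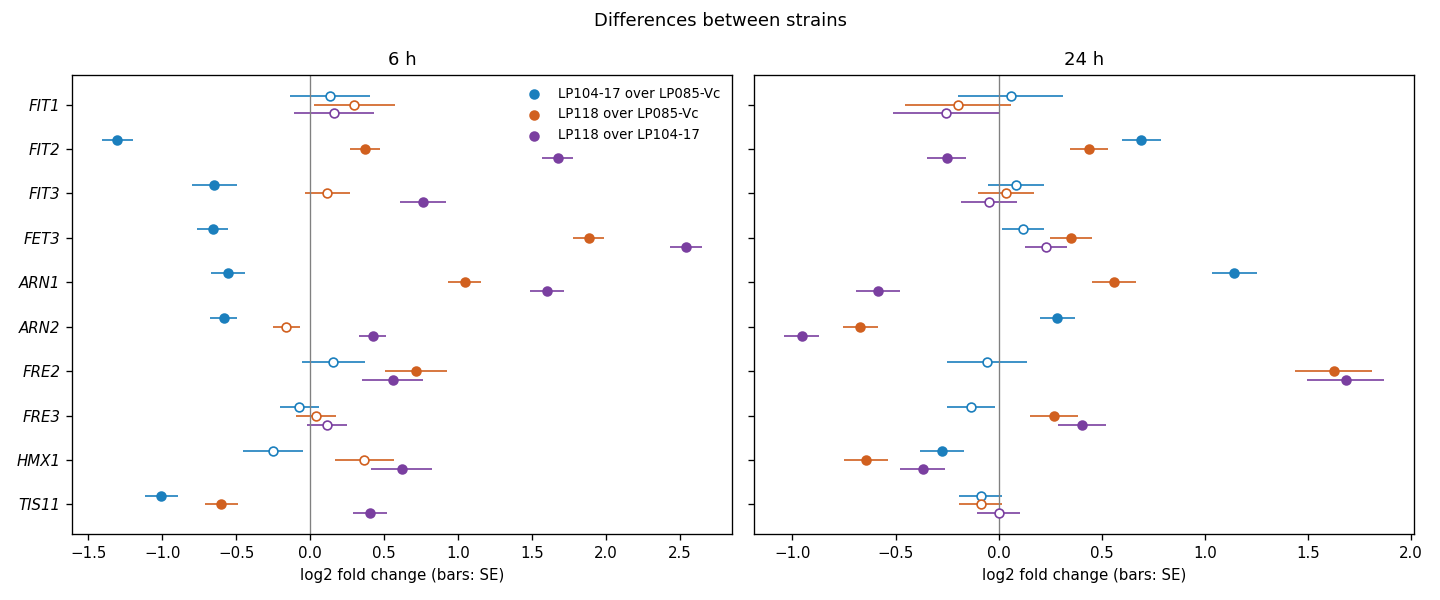
Fitted log2 differences between strains for each member at 6 h and at 24 h, with SE bars and filled points where the adjusted p was below 0.05. At 6 h FET3 in LP118 stands furthest from the other strains, at 1.88 and 2.54, and at 24 h FRE2 in LP118 does, at 1.62 and 1.68.

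At 24 h the members were called in mixed directions. In LP104-17 against LP085-Vc, 3 were higher (ARN1, FIT2 by 0.69 ± 0.09 and ARN2 by 0.28 ± 0.08) and 1 lower (HMX1), where 25.1% of all genes were higher, 27.4% lower and 52.6% called in either direction. Both FPKM fits, which had no TMM scaling, gave 4 higher and none lower. Their median over all genes was 0.09, beside -0.05 in the main fit. HMX1 was also not called without replicate 2 or 3 of either strain at 24 h. In LP118 against LP085-Vc, 5 were higher (FRE2, ARN1, FIT2, FET3 and FRE3) and 2 lower (ARN2 and HMX1), where 38.5% of all genes were higher, 39.2% lower and 77.7% called. In LP118 against LP104-17, 2 were higher (FRE2 and FRE3) and 4 lower (ARN2, ARN1, HMX1 and FIT2), where 35.0% of all genes were higher, 33.6% lower and 68.6% called. The majority direction of these 6 did not hold in every setting: both FPKM fits gave 3 higher and 2 lower, and the fit with the coding length trend removed gave 3 and 3. Library ranges did not overlap for 5, 6 and 7 members in the 3 comparisons, against 62.2%, 80.2% and 72.2% of all genes. The median over the members was 0.07, 0.15 and -0.15 in these comparisons. In the last of them the value of FIT2 was -0.25 ± 0.09 (adjusted p = 0.0221), and it was not called without replicate 2 of LP104-17 (adjusted p = 0.0706) or replicate 2 of LP118 (adjusted p = 0.131). In all 3 comparisons the share of members called was no larger than the share of all genes called, and the same held for LP118 against LP085-Vc at 6 h.

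The difference between strains in the time change was tested by interaction. In LP104-17 against LP085-Vc, 6 members rose more and none rose less (17.8% of all genes were higher, 15.3% lower and 33.1% called in either direction), with a median of 0.75. In LP118 against LP085-Vc, 2 members had a larger change and 4 a smaller one (30.5% of all genes were higher, 29.6% lower and 60.1% called), with a median of -0.28. That balance turned round in both FPKM fits, where 4 members had a larger change and 2 a smaller one: ARN1 and ARN2 lost their calls, and FIT2 (0.32, adjusted p = 0.0412 with log2(FPKM + 1)) and FRE3 (0.47, adjusted p = 0.0437) gained one. These fits had no TMM scaling, and the median over all genes was 0.24 with log2(FPKM + 1) and 0.25 with log2(FPKM + 0.1), beside 0.00 in the main fit. The part of that shift of all genes in the changed calls was not tested. In LP118 against LP104-17, 1 member had a larger change and 7 a smaller one (24.5% of all genes were higher, 25.3% lower and 49.8% called), with a median of -0.90. Without replicate 2 of LP104-17 at 6 h the counts were 2 larger and 6 smaller. FRE2 was called with a larger change in LP118 in both.

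**Figure D5:**
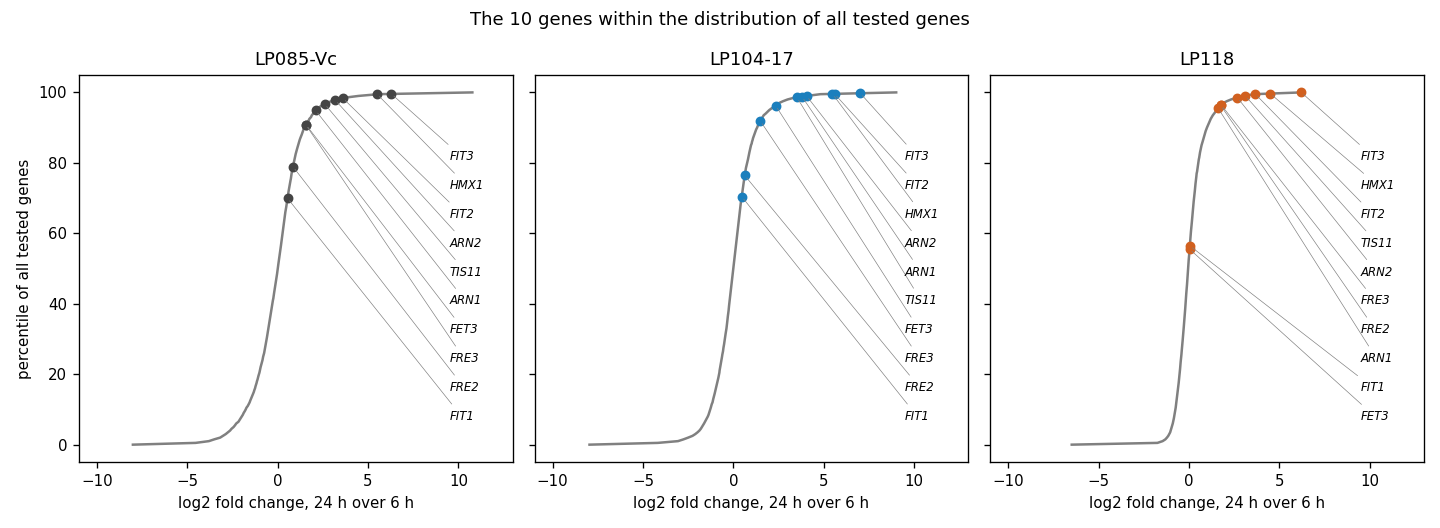
Cumulative distribution of the fitted log2 change from 6 h to 24 h (x axis) over the 6131 genes tested in each strain, with the percentile on the y axis and the 10 members as labelled points. The members lie between 0.54 and 6.30 in LP085-Vc, between 0.47 and 7.03 in LP104-17 and between 0.03 and 6.22 in LP118, while the median of all genes lies within 0.05 of 0.

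Other genes of the pathway were counted by list. The counts of each list that follows stand beside the share of all genes called over time. That share was 37.9% higher with 38.3% lower for LP085-Vc, 35.2% higher with 35.7% lower for LP104-17 and 26.6% higher with 30.5% lower for LP118, and nothing is read from a list whose share is near these. Of 11 other uptake and reductase genes, 8 rose and 2 fell in LP085-Vc, 9 rose and 1 fell in LP104-17, and 10 rose in LP118, with median log2 changes of 1.20, 1.21 and 0.65. SIT1, a siderophore transporter on chromosome V, read 2261, 2359 and 2397 CPM in LP085-Vc, 2136, 2160.0 and 2348 CPM in LP104-17 and 251, 286 and 291 CPM in LP118 at 24 h. Its time change was 3.66 ± 0.11, 3.82 ± 0.11 and 0.54 ± 0.10, and at 24 h LP118 was below LP085-Vc by 3.08 on the log2 scale (-3.08 ± 0.10, adjusted p = 1.14e-15), beside the chromosome median of -1.08. FET4, the low-affinity iron transporter, read 46.3, 48.7 and 50.8 CPM in LP118 at 6 h against 328, 337 and 347 CPM in LP085-Vc, the reverse of FET3, with a log2 difference of -2.79 ± 0.08 (adjusted p = 4.26e-16). By 24 h it read 404, 407 and 413 CPM in LP118. FRE1, the main surface reductase for iron and copper, rose by 1.20 ± 0.09, 1.89 ± 0.09 and 2.36 ± 0.09, and FTH1, the vacuolar permease, by 1.59 ± 0.07, 1.40 ± 0.07 and 1.18 ± 0.07 in the same order of strains. TGCACCC stood before 9 of these 11 genes.

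Of 10 metal trafficking and assembly genes known as targets of Aft1 or Aft2, 6 rose and 2 fell in LP085-Vc and in LP104-17, and 7 rose in LP118, where 76.2%, 70.9% and 57.1% of all genes were called in either direction. VHT1, which takes up biotin, rose by 3.17 ± 0.09, 3.82 ± 0.10 and 3.45 ± 0.09, and CCC2, the copper pump that loads Fet3, by 2.07 ± 0.14, 1.84 ± 0.14 and 2.16 ± 0.14. ISU1, the scaffold for iron-sulfur clusters, rose by 2.51 ± 0.08 in LP085-Vc, in LP104-17 by 2.54 ± 0.08, and in LP118 by 0.20 ± 0.08 (adjusted p = 0.0288). ISU2, its paralog, fell by 1.60 in LP085-Vc and by 2.13 in LP104-17. TGCACCC stood before 4 of these 10 genes. Among 7 regulators, 4 rose and 2 fell in LP085-Vc, 4 rose and 1 fell in LP104-17, and 1 rose in LP118, beside the same shares of all genes. AFT1 read 68.6, 81.2 and 83.2 CPM in LP085-Vc and 165, 168 and 169 CPM in LP118 at 6 h, a log2 difference of 1.11 ± 0.16 (adjusted p = 4.14e-06), and AFT2 differed by 0.69 ± 0.08 (adjusted p = 2.40e-07). Over time AFT1 rose by 0.93 ± 0.16 in LP085-Vc and 0.58 ± 0.16 in LP104-17, and its value in LP118 was 0.22 ± 0.15 (adjusted p = 0.228). The LP118 libraries at 24 h disagreed, at 141, 219 and 224 CPM, which lie on both sides of the 6 h values. A change of AFT1 in LP118 is therefore not settled. Messenger RNA levels say nothing of the location or activity of these factors.

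The genes that use or store iron were mixed, and 76.2% of all genes in LP085-Vc, 70.9% in LP104-17 and 57.1% in LP118 were called over time. Of 15 iron-sulfur and heme enzyme genes, 8 rose and 4 fell in LP085-Vc, 9 rose and 5 fell in LP104-17, and 7 rose and 7 fell in LP118 over time, with medians of 0.30, 0.48 and 0.03. Of 12 genes of iron storage and mitochondrial iron, 7 rose and 4 fell, 5 rose and 2 fell, and 2 rose and 7 fell in the same order. SDH2, a subunit of succinate dehydrogenase whose messenger is a known target of Tis11, rose by 2.29 ± 0.09 in LP085-Vc and by 2.25 ± 0.09 in LP104-17, and by 0.51 ± 0.09 in LP118 (adjusted p = 8.47e-05). The 15 enzyme genes ran from -2.58 to 3.25 in LP085-Vc, from -1.66 to 3.14 in LP104-17 and from -2.95 to 3.14 in LP118. A log2 change of at least 1 in size was seen for 10, 8 and 5 of them, and only SDH2 is named here. Of 8 copper and zinc uptake genes, 2 rose and 2 fell in LP085-Vc, 3 rose and 4 fell in LP104-17, and 8 rose in LP118. CTR1, the copper transporter, rose 4.33-fold, 4.58-fold and 4.27-fold by CPM means in the 3 strains.

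Within the regulon, the profile over the 6 group means of log2 CPM was alike for most members. The correlation of each gene with the mean of the other 9 was between 0.95 and 0.99 for FIT2, FIT3, ARN1, ARN2, FRE3, HMX1 and TIS11, 0.88 for FIT1, 0.74 for FET3 and 0.68 for FRE2. All points share the same 18 libraries and a common rise over time, so these values are descriptions. Among 6121 other genes, the 10 closest to the mean profile of the members were AAD14, AAD10, GSC2, SNZ2, VHT1, SNZ3, YLR031W, YDR271C, HXT10 and POG1, with correlations over the 6 groups from 0.996 for AAD14 to 0.984 for POG1. VHT1 is the one among them from the lists of iron genes above, AAD14 and AAD10 are known as aryl-alcohol dehydrogenase genes, and SNZ2 and SNZ3 belong to vitamin B6 synthesis. A correlation of 0.9 or more was reached by 216 of the 6121 genes. Correlation takes no account of size: AAD14 spanned 0.70 log2 units over the 6 groups, and the members from 0.60 (FIT1) to 7.05 (FIT3).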

How the data were processed

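Per the labels' protocols, total RNA was isolated with Trizol, treated with DNase I on a column and made into Illumina libraries. For each of 18 libraries the authors deposited a raw count and an FPKM value for 6600 genes and, per the file headers, these are the authors' own values. In 1 file both columns carry the count header, and the second holds FPKM by its values. The submitters' processing notes name Bowtie2 2.2.5 and the build R64. How reads were counted, and whether strand was used, is not given in the sources used here. Identifiers were matched to RefSeq R64 (5917 of 6600), which gave coordinates, symbols and upstream sequences.

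Counts were scaled by TMM, with factors from 0.914 to 1.11, and fitted in edgeR 4.0.16 (R 4.3.3) with 1 mean per group and filterByExpr at a minimum count of 10, which kept 6131 genes and removed 469. The fit had 12 residual degrees of freedom and a common biological coefficient of variation of 11.2%. There were 12 comparisons, each adjusted over all genes tested, with a prior count of 0.125 in fold changes. DESeq2 1.42.0 and limma 3.58.1 served as alternatives, limma on log2(FPKM + 1) and log2(FPKM + 0.1) without TMM scaling. The edgeR steps were run on simulated counts in which a small part of the genes was changed in a single group. A far larger share of genes was called in these data, so that run does not test the scaling used here. FPKM was used to compare levels between genes. The members and gene lists were chosen with earlier results of these data known. Named were the 10 members, AFT1, AFT2 and FTR1, and the 10 genes closest to the mean profile of the members. Of the other lists, only some of the genes called with a log2 change of at least 1 in size in a comparison described are named. The named genes are therefore not the full set of large changes in those lists. No 2 libraries of a group were alike within counting noise (lowest chi-square per degree of freedom 3.15). In LP104-17 at 6 h, replicate 2 gave 23.9 against replicate 1 and 28.0 against replicate 3, beside 4.20 between replicates 1 and 3. In LP085-Vc at 6 h, replicate 1 gave 23.3 against replicate 2 and 16.3 against replicate 3, beside 8.03 between replicates 2 and 3.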

Additional observations from a re-analysis of the deposited data

Results flagged for a closer look

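Of the 30 interaction values of the members, 20 passed the threshold: 6 of 10 in LP104-17 against LP085-Vc (33.1% of all genes called), 6 of 10 in LP118 against LP085-Vc (60.1%) and 8 of 10 in LP118 against LP104-17 (49.8%). The share of members called in LP118 against LP085-Vc was thus that of all genes. Each value is a difference between strains in the log2 change from 6 h to 24 h (edgeR quasi-likelihood test, Benjamini-Hochberg adjusted over 6131 genes). The comparisons share the libraries of each strain. Against LP085-Vc, the change in LP104-17 was larger for FIT2 (1.99 ± 0.14), ARN1 (1.70 ± 0.16), TIS11 (0.92 ± 0.15), ARN2 (0.87 ± 0.12), FET3 (0.78 ± 0.15) and FIT3 (0.73 ± 0.21). All 6 were lower in LP104-17 than in LP085-Vc at 6 h. An interaction value is the strain difference at 24 h minus that at 6 h, so the 2 statements are not separate observations. At 24 h FIT2, ARN1 and ARN2 were called higher in LP104-17 than in LP085-Vc. TIS11 (-0.09 ± 0.10), FET3 (0.12 ± 0.10) and FIT3 (0.08 ± 0.14) were not called there, so their interactions lie mostly in the 6 h difference.

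Against LP085-Vc, the change in LP118 was larger for FRE2 (0.91 ± 0.28) and TIS11 (0.52 ± 0.15) and smaller for FET3 (-1.53 ± 0.15), HMX1 (-1.01 ± 0.22), ARN2 (-0.51 ± 0.12) and ARN1 (-0.49 ± 0.15). The value of ARN1 was not called without replicate 2 of LP118 at 24 h (adjusted p = 0.0504). FET3 had the smallest adjusted p of these, 3.49e-08, and its 6 h libraries in LP118 did not overlap those of LP085-Vc.

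Against LP104-17, the change in LP118 was larger for FRE2 (1.13 ± 0.28) and smaller for FET3 (-2.31 ± 0.15), ARN1 (-2.19 ± 0.16), FIT2 (-1.93 ± 0.14), ARN2 (-1.38 ± 0.12), HMX1 (-0.99 ± 0.23), FIT3 (-0.81 ± 0.21) and TIS11 (-0.40 ± 0.15). The value of TIS11 (adjusted p = 0.0358) lost its call when replicate 1 or 2 of LP104-17 at 6 h, replicate 1 of LP104-17 at 24 h, replicate 1 of LP118 at 6 h, or replicate 2 or 3 of LP118 at 24 h was left out, with adjusted p from 0.0683 to 0.115.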

How the results depend on the processing

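The total of called members over both directions moved by no more than 1.5 times in any comparison, and no called value of a member changed sign under any of the alternatives run: other scaling, no filter, DESeq2, a fit of only the groups compared, a replicate block, removal of a coding length trend, scaling without chromosomes V and IX, log2(FPKM + 1), log2(FPKM + 0.1), and each library left out. Counts in 1 direction moved more: higher and lower went from 2 and 4 to 4 and 2 in the time change of LP118 against LP085-Vc and to 3 and 2 in LP118 against LP104-17 at 24 h, and from 3 and 1 to 4 and 0 in LP104-17 against LP085-Vc at 24 h, all in both FPKM fits. Of the values of single genes, 1916 kept their side of the threshold, 41 lost a call and 23 gained one. No label says that replicate numbers pair samples. Deviations of same-numbered libraries from their group means correlated between -0.38 and 0.65. The values for replicates 1, 2 and 3 in LP104-17 against LP085-Vc at 6 h were 0.43, 0.65 and -0.32, so a pairing there is not settled. With the block the members called numbered 7 in LP118 against LP104-17 at 24 h against 6 without it. The number was the same as without it in each of the other 11 comparisons. The only call the block changed was FET3 in LP118 against LP104-17 at 24 h, 0.24 with adjusted p = 0.0399. That value also passed under RLE scaling (0.0463), the coding length trend (0.0139), the fit of only those groups (0.0397), DESeq2 (0.0296), log2(FPKM + 1) (0.0185), log2(FPKM + 0.1) (0.0189), and without replicate 1 of LP104-17 (0.0277) or replicate 1 of LP118 (0.0287). The FPKM fits ended the calls of HMX1 in LP104-17 against LP085-Vc and in LP118 against LP104-17 at 24 h, of ARN1 and ARN2 in the time change of LP118 against LP085-Vc (where FIT2 and FRE3 gained one), of TIS11 in that against LP104-17, of FRE2 in LP118 against LP104-17 at 6 h and of FIT2 in LP118 against LP104-17 at 24 h, the last also lost with the coding length trend removed. The fit of only the groups compared ended FIT3 and ARN1 in LP104-17 against LP085-Vc and FRE2 and HMX1 in LP118 against LP104-17, all at 6 h. The causes were not tested. Over all genes, LP104-17 against LP085-Vc at 6 h gave 708 calls, 344 when only those groups were fitted and 1206 without replicate 2 of LP104-17 at 6 h. With log2(FPKM + 1), the share of calls that were higher went from 50.1% to 60.5% in that comparison, from 47.8% to 64.3% in LP104-17 against LP085-Vc at 24 h, from 46.5% to 64.3% in the time change of LP118, and in the interactions from 53.7% to 70.3% (LP104-17 against LP085-Vc), from 50.8% to 66.4% (LP118 against LP085-Vc) and from 49.2% to 61.0% (LP118 against LP104-17). Its median over all genes was 0.19 in LP118 against LP085-Vc at 24 h, -0.11 in LP118 against LP104-17 at 6 h, 0.13 in the time change of LP118, and 0.24 and 0.13 in the interactions of LP118 against LP085-Vc and LP104-17. Low counts limit FIT1 and FRE2 and the 6 h values of HMX1, and 3 libraries per group limit differences near the threshold.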
